A study of Homo sapiens with 4 samples.

Results

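The genes described here encode the proteins of the cytosolic ribosome. They were chosen by symbol: every gene named RPL or RPS with a number, with or without a final A or X, together with RPLP0, RPLP1, RPLP2, RPSA and FAU, 78 of the 26506 symbols measured. Of the 78 genes, 46 encode proteins of the large subunit and 32 proteins of the small subunit, RPSA and FAU among the latter. All 78 passed the filter on low values, a mean of at least 1 FPKM over the 2 libraries of a cell line, in both cell lines. FPKM is the number of sequenced fragments divided by transcript length and library size.

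The cells were HeyC2 and SKOV3, established human lines of ovarian cancer, and their RNA was sequenced. Each line received either a plasmid for TET1, pCMV6/TET1, in which a viral CMV promoter drives the gene, or the empty plasmid (control), at 3 μg, and all cells were kept under Geneticin at 400 μg/ml. TET1 is an enzyme that oxidises methylated cytosine in DNA, and the TET1 cells were studied as reprogrammed ovarian cancer stem cells. Each condition had 1 library, 4 in all, so no difference below has a replicate check, and no test between conditions was run. Whether the selected cells were a pool or a clone is not given in the sources used here.

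The ribosome reads mRNA on its small subunit and joins amino acids on its large subunit. Its proteins are needed in matched amounts, and growing cells spend a large share of their mRNA on them. Most of these mRNAs start with a C followed by an unbroken run of pyrimidines, the 5′ terminal oligopyrimidine (TOP) tract. When mTOR, a kinase that senses nutrients, is shut off, LARP1 binds this tract and holds the mRNAs back from translation. RNA levels, as measured here, do not record that step.

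At the annotated RefSeq start sites (GRCh38.p14), a C followed by at least 4 further C or T bases was found in 47 of the 63 ribosomal protein genes with a promoter in the table (74.6%), against 5.14% of all 27305 genes with one. The tracts ran from 5 to 19 bases, with a median of 8. The following stretches of 30 bases, 10 before the start and 20 from it, belong to genes whose values are given below. They are written 5′ to 3′ on the gene's strand, with the tract in capitals. The first 7 genes hold a tract and the last 2 do not at the annotated start.
RPS25, chr11:119018324-119018353, minus strand: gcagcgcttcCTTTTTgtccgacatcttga
RPS21, chr20:62387093-62387122, plus strand: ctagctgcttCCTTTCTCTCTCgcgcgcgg
RPS12, chr6:132814559-132814588, plus strand: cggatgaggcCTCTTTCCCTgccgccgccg
RPL26, chr17:8383174-8383203, minus strand: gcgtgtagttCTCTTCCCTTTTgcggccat
RPL31, chr2:101002279-101002308, plus strand: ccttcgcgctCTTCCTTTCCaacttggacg
RPLP0, chr12:120201092-120201121, minus strand: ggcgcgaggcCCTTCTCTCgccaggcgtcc
RPL21, chr13:27251548-27251577, plus strand: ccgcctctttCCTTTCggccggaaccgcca
RPS4X, chrX:72277229-72277258, minus strand: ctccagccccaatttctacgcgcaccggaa
RPS15, chr19:1438386-1438415, plus strand: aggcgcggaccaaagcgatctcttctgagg
The tract was as long, at 12 bases, in RPS21 and RPL26, which lay toward opposite ends of the SKOV3 comparison below.

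The deposited values carry 1 step that shapes every comparison within a line. GAPDH was listed at exactly the same FPKM in control and TET1, 5417 in HeyC2 and 2248 in SKOV3, and the values of each TET1 library fell on multiples of a constant, 3.23 in HeyC2 and 1.346 in SKOV3. Before that multiplication GAPDH in the TET1 libraries was 1675 FPKM in HeyC2 and 1671 FPKM in SKOV3. Changes are therefore given as relative changes, the log2 ratio of TET1 to control with 1 FPKM added to each, minus the median over all genes of that line that passed the filter. A gene is called when it lay at least 1.5-fold (0.58 on the log2 scale) from that median. Levels of the ribosomal protein genes and their pseudogenes are given as TPM, each gene's FPKM as a share of its library's sum, scaled to a sum of 1000000 per library, which removes the constant. Changes on TPM are log2 ratios with 1 TPM added and without centring on the median gene. Levels of all other genes are given as the deposited FPKM, which in the TET1 libraries still carry the constant.

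About 6700000 to 7300000 fragments were estimated per library from the spacing of low FPKM values, and 15162 to 16941 genes had an FPKM above 0. TET1 was listed at 0.20 and 1.68 FPKM in HeyC2 control and TET1, and at 0.43 and 2.42 FPKM in SKOV3. With the constant divided out, the TET1 libraries held TET1 at 0.52 FPKM (HeyC2) and 1.798 FPKM (SKOV3). The epithelial keratins KRT8 and KRT18 were present in all 4 libraries at 193 FPKM or above. KRT7 and KRT19, also keratins of simple epithelia, set the libraries apart. KRT7 was at 290 and 3637 FPKM in HeyC2 control and TET1 and at 1537 and 29.6 FPKM in SKOV3, and KRT19 was at 255 and 0.62 FPKM in SKOV3. EPCAM was at 0.09 and 1.23 FPKM in HeyC2 and at 15.4 and 21.7 FPKM in SKOV3. CDH1 was listed at 0 in HeyC2 and was at 2.24 and 8.48 FPKM in SKOV3. The Müllerian factor PAX8 was between 74.6 and 630 FPKM, while WT1, MUC16 and EMX2 were at 0.71 FPKM or below. Of the blood markers PTPRC was at 0.38 FPKM or below, CD3E was listed at 0, and CD68 was at 12.7 to 292 FPKM. The endothelial cadherin CDH5 was at 18.9 and 306 FPKM in HeyC2, with PECAM1 and VWF at 0.55 FPKM or below in all libraries. Of the fibroblast markers, the collagen gene COL1A1 was at 0.57 and 5.69 FPKM in HeyC2 and at 0.32 and 37.2 FPKM in SKOV3. LUM was listed at 0 in HeyC2 and was at 0.51 and 5.81 FPKM in SKOV3. COL3A1 and DCN were at 0.75 FPKM or below in all libraries. The part of these markers in the differences below was not tested.

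Ribosomal protein mRNAs made up 19.1% of the summed FPKM in HeyC2 control and 19.96% in HeyC2 TET1. In SKOV3 their share was 12.5% in the control and 11.9% in TET1. The median ribosomal protein gene stood at 2316 TPM in HeyC2 control, 2437 TPM in HeyC2 TET1, 1547 TPM in SKOV3 control and 1465 TPM in SKOV3 TET1. The levels of the set thus lay further apart between the lines than between TET1 and control of a line. In bulk libraries, fewer cells of a kind and less of an RNA in each cell cannot be told apart.

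**Figure D1:**
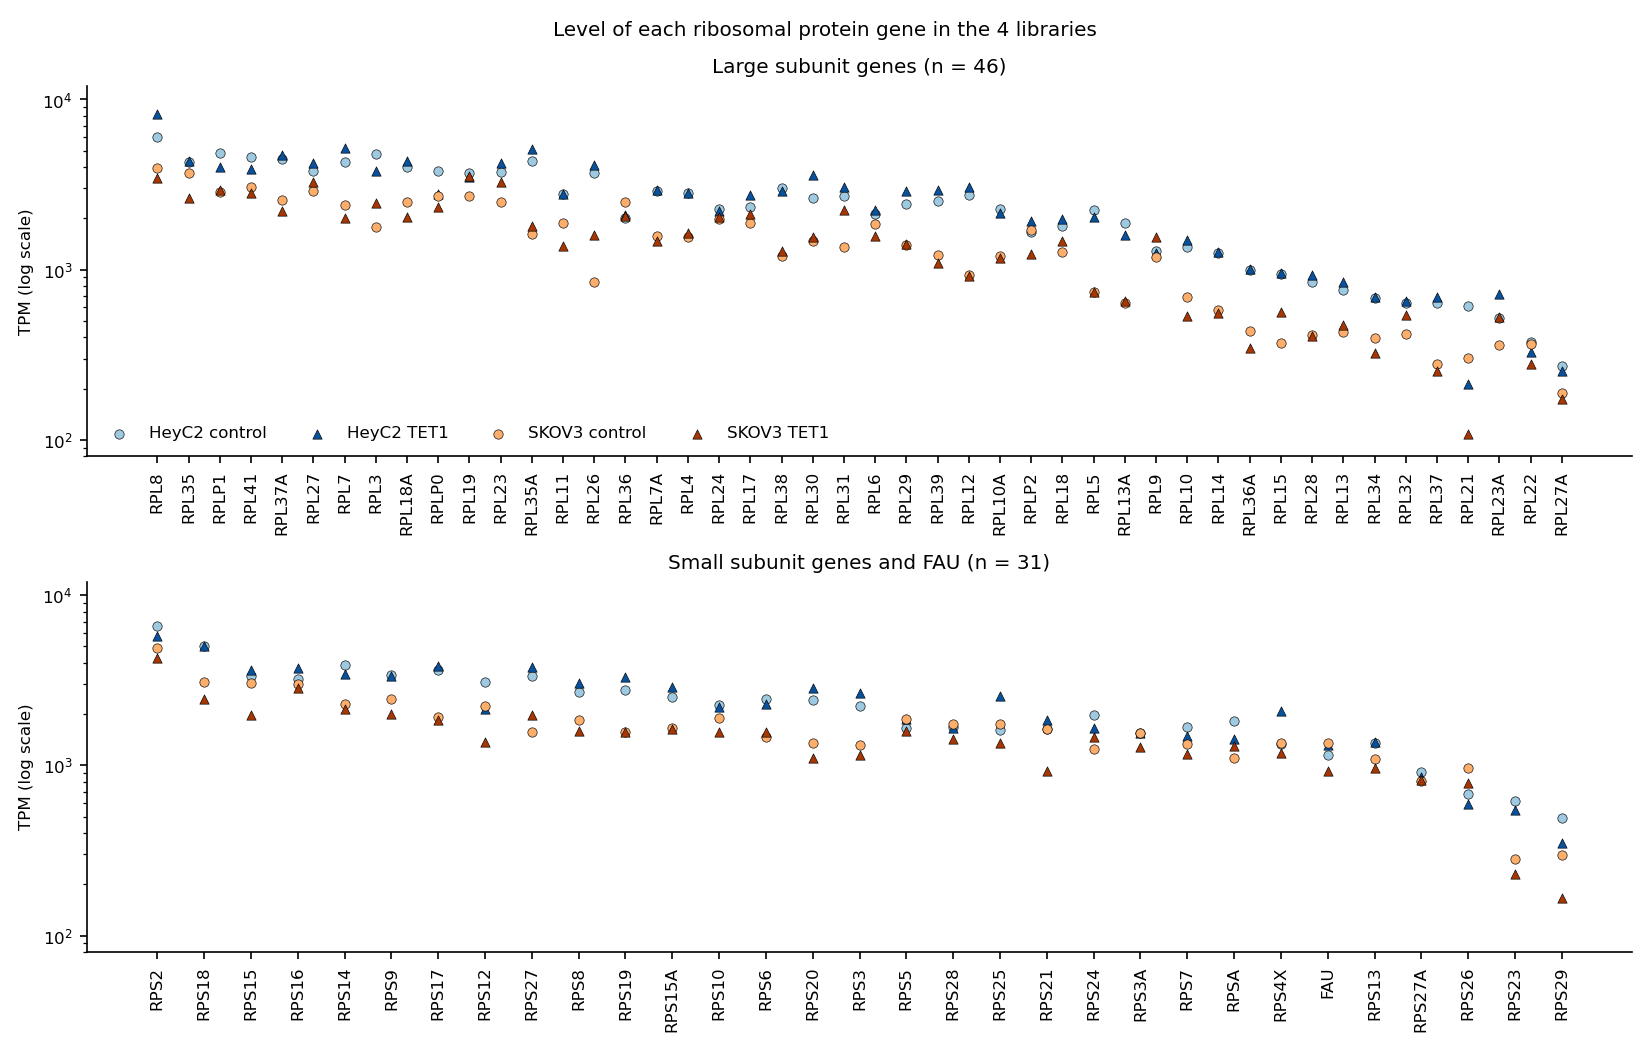
Level of 77 of the 78 ribosomal protein genes in TPM on a log axis, with 1 point per library and genes ordered by their mean level in the 2 controls. Most HeyC2 points (blue) lie above the SKOV3 points (orange), and RPL21 has the lowest TET1 point in both lines, at 212 and 109 TPM.

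The genes were not equally represented. The 6 with the highest mean level in the controls were RPS2, RPL8, RPS18, RPL35, RPLP1 and RPL41, and the 6 with the lowest were RPL27A, RPL22, RPS29, RPL23A, RPS23 and RPL21. RPS2, a protein at the mRNA entry side of the small subunit, stood at 6569, 5768, 4917 and 4268 TPM in HeyC2 control, HeyC2 TET1, SKOV3 control and SKOV3 TET1. RPL27A, a large subunit protein, stood at 273, 254, 188 and 175 TPM in the same order. Both genes differed less between TET1 and control than between the lines. Across the 78 genes, Pearson's r of the log2 levels was 0.97 between the HeyC2 libraries, 0.95 between the SKOV3 libraries and 0.89 between the controls of the lines. These coefficients are across genes that share their libraries and their lengths, and describe how far the order of levels was kept.

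The control libraries, 1 per line, show how these libraries differed without the TET1 plasmid. A difference between the lines and one between cultures cannot be told apart here. The tables of the lines were made separately, so the log2 ratio of HeyC2 to SKOV3 is again given relative to the median gene. Of the 78 genes, 76 lay above the median gene and 59 (75.6%) were called higher in HeyC2, where 29% of all 12488 genes were. None was called lower, where 28.6% of all genes were. The median was 0.93 on the log2 scale (interquartile range 0.61 to 1.19), 1.103 for the large and 0.77 for the small subunit. The set made up 61 of the 125 genes of at least 500 FPKM. The other 64 had a median of 0.24, and the 673 other genes of at least 100 FPKM one of 0.11.

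RPL26, a large subunit protein, had the largest difference between the controls, at 3695 TPM in HeyC2 and 842 TPM in SKOV3 (2.43). RPL5, RPL13A and RPL12 followed at 1.89, 1.86 and 1.84. Summed with its pseudogenes, which are described below, RPL13A differed by 1.11. RPL5 joins RPL11 and the 5S rRNA in a particle that can bind and block the ubiquitin ligase MDM2. RPL11 differed less, by 0.86. At the other end, RPS26 lay at -0.21, RPL36 at 0.00 and FAU at 0.07. RPS26 was at 679 TPM in HeyC2 and 965 TPM in SKOV3, so its level was higher in SKOV3.

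In HeyC2, most ribosomal protein genes lay slightly above the median gene. The relative change had a median of 0.18 (interquartile range 0.06 to 0.33), with 62 genes above and 16 below the median gene. The spread over the set was narrow, with an SD of 0.29 against 0.63 for all genes. Before the scaling to GAPDH, again relative to the median gene, the median relative change of the set was 0.02. Adding 1 FPKM to a multiplied library lowers the log2 ratio of the many low genes. On TPM, without centring, the median change was 0.03. The other genes of at least 100 FPKM, 1576 in number, had a median of 0.12.

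Of the 78 genes, 5 (6.41%) were called higher in HeyC2 TET1, where 13% of all 12993 genes were, and 1 (1.28%) was called lower, where 12.9% of all genes were. Both shares are below those of all genes. Before the scaling, 12.9% of all genes were called higher and 9.27% lower. The 5 genes were RPS25, RPS4X, RPL23A, RPL8 and RPL30.

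RPS25 is a small subunit protein used by several viral internal ribosome entry sites. It was at 1616 TPM in HeyC2 control and 2566 TPM in TET1, a relative change of 0.82, and at 1750 and 1361 TPM in SKOV3 (-0.58). RPS4X, encoded on the X chromosome, was at 1345 and 2095 TPM in HeyC2 (0.79) and at 1351 and 1180 TPM in SKOV3 (-0.41). Both genes started from nearly equal levels in the controls of the lines and ended apart, higher in HeyC2 TET1 and lower in SKOV3 TET1. These were the 2 genes that stayed called higher in HeyC2 on TPM, before the scaling and with a pseudocount of 0.1 or 0.01.

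The other 3 lay close to the threshold. RPL23A, which sits at the exit of the peptide tunnel, was at 521 and 717 TPM (0.61). RPL8, next to the peptidyl transferase centre, was at 6052 and 8208 TPM (0.59) and was the highest member in HeyC2 TET1. RPL30, known to bind its own transcript in yeast, was at 2646 and 3586 TPM (0.59).

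At the low end in HeyC2, RPL21 stood alone at -1.37 and is described with its pseudogene below. RPS12 followed at -0.37, with 3084 TPM in the control and 2153 TPM in TET1. RPS29 lay at -0.34, with 494 and 352 TPM. RPS29 has the shortest transcript of the set (295 bases), and its counting error alone was 0.15 on the log2 scale. RPLP0, RPSA and RPL3 lay at -0.29, -0.20 and -0.18. RPSA is the laminin receptor precursor of the small subunit, and RPL3 reaches the peptidyl transferase centre.

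In SKOV3, the set lay below the median gene. The relative change had a median of -0.33 (interquartile range -0.50 to -0.12), with 13 genes above and 65 below the median gene. The spread was wider than in HeyC2, with an SD of 0.36. That of all genes was wider too, with an SD of 0.82 against 0.63 in HeyC2. Abundant genes as a whole lay low in this comparison: the 882 other genes of at least 100 FPKM had a median of -0.32. Centred on all genes of at least 100 FPKM the ribosomal protein genes lay at -0.01, and on TPM, without centring, at -0.11. The small subunit had a median of -0.42 and the large subunit one of -0.23, while in HeyC2 they were at 0.16 and 0.19.

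**Figure D2:**
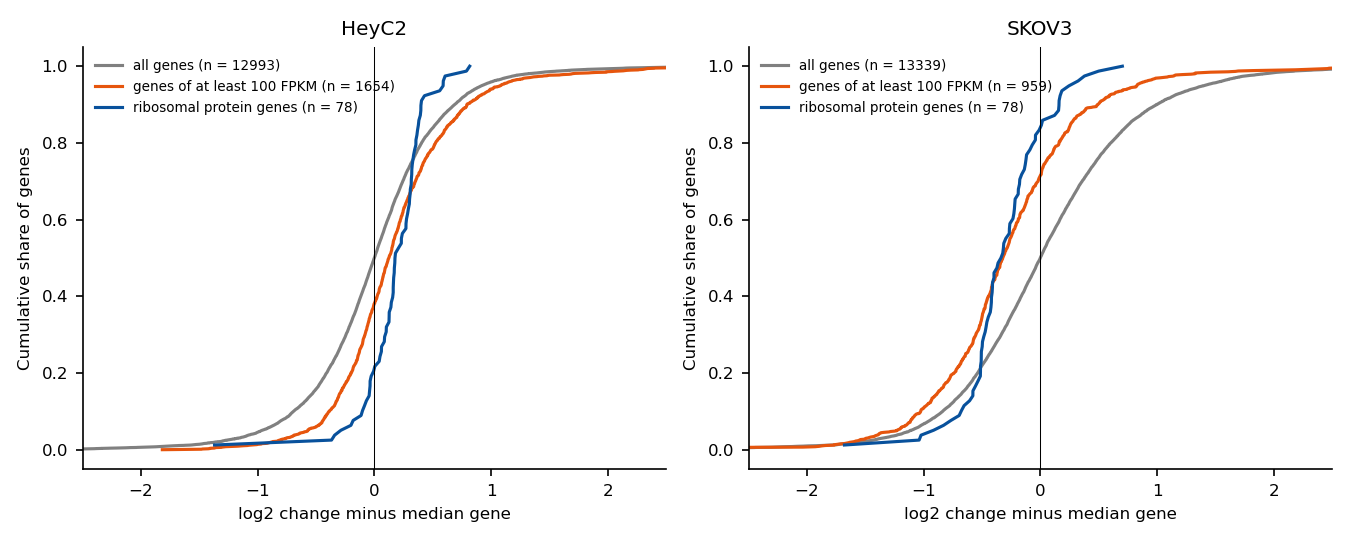
Cumulative share of genes (y axis) by log2 change of TET1 to control minus the median gene (x axis), for all genes, genes of at least 100 FPKM and the 78 ribosomal protein genes. In HeyC2 the ribosomal curve is steep around 0.18, and in SKOV3 it follows the curve of abundant genes near -0.33.

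In SKOV3 TET1, 10 genes (12.8%) were called lower, where 17.9% of all 13339 genes were, and 1 (1.28%) was called higher, where 20.6% of all genes were. On TPM 5 were called lower and 3 higher. The 10 were RPL21, RPS29, RPS21, RPS12, RPS15, FAU, RPL35, RPLP2, RPL11 and RPL22. Each subunit was represented by 5 genes, 10.9% of the large and 15.6% of the small subunit genes. Of the 10, only RPL11 and RPL22 have a transcript of at least 600 bases, as 55 of all 78 genes do. With a correction for GC content and length together, 6 were called lower. The part of transcript length alone was not tested.

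RPS21, a small subunit protein, was at 1631 TPM in SKOV3 control and 931 TPM in TET1 (-1.02), and at 1635 and 1852 TPM in HeyC2 (0.33). The controls were nearly equal and the TET1 libraries lay on either side of them. RPS12 was at 2226 and 1370 TPM (-0.91) and was low in TET1 of both lines. RPS29 was at 297 and 167 TPM (-1.04), with a counting error of 0.23 and about 61.1 estimated fragments in the TET1 library, the fewest of any member. RPS15, near the decoding site, was at 3040.5 and 1985 TPM (-0.83). FAU encodes a ubiquitin-like protein fused to the small subunit protein eS30, and was at 1356 and 925 TPM (-0.77).

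Among the large subunit genes, RPL35 was at 3681 and 2637 TPM (-0.69), and RPL11 at 1879 and 1386 TPM (-0.65). RPL22, a protein of the subunit surface whose gene is often mutated in cancers with unstable microsatellites, was at 365.5 and 279 TPM (-0.61). RPL10 and RPS25 stood just outside the threshold, at -0.58.

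RPL26 was the only gene called higher in SKOV3, at 842 TPM in the control and 1593 TPM in TET1 (0.70). RPL31, RPL15, RPL23A and RPL3 followed at 0.50, 0.38, 0.32 and 0.25. RPL31 was at 1359 and 2231 TPM, RPL15 at 373.5 and 565 TPM and RPL3 at 1792 and 2465 TPM. In HeyC2 control the same genes stood at 3695 TPM (RPL26), 2720 TPM (RPL31), 949 TPM (RPL15) and 4810 TPM (RPL3), above SKOV3 TET1 in each case. RPL23A was at 521 TPM in HeyC2 control and 527 TPM in SKOV3 TET1. The SKOV3 control library enters both of these comparisons. RPL9 lay above the median gene in SKOV3 as well, at 0.18, with 1293 TPM in HeyC2 control and 1559 TPM in SKOV3 TET1.

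Set side by side, 52 of the 78 genes (66.7%) lay above the median gene in HeyC2 and below it in SKOV3. Of all 11888 genes that passed the filter in both lines 25.5% did so, and of the 1314 with a mean of at least 100 FPKM 39.0% did. The count was 39 before the scaling and 29 when centred on abundant genes. On TPM, without centring, 33 genes had a ratio above 1 in HeyC2 and below 1 in SKOV3. In 10 genes the change was above the median gene in both lines, in 13 it was below in both, and in 3 (RPL3, RPSA and RPS24) it was below in HeyC2 and above in SKOV3. The change was higher in HeyC2 for 70 genes, for 51 on TPM without centring and for 44 when centred on abundant genes. The share of all genes with a higher change in HeyC2 was not counted. The other genes of at least 100 FPKM had medians of 0.12 in HeyC2 and -0.32 in SKOV3. For the set, the difference between the lines had a median of 0.51 and ran from -0.43 (RPL3) to 1.39 (RPS25). On TPM, without centring, the median difference was 0.15, and centred on abundant genes it was 0.07. No test of the difference between the lines was possible.

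The order of the genes was only loosely shared. Over the 78 genes Pearson's r between the relative changes was 0.36 and Spearman's rho 0.10, and without RPL21 Pearson's r was 0.12. The genes share their libraries, so these coefficients are descriptions. RPS25, RPS21, RPS4X, RPS15, FAU, RPLP2 and RPL8 differed by at least 1 on the log2 scale between the lines, each in the same direction. The share of all genes that differed this far was not counted, so the list shows no excess in the set. Relative changes of all genes spread more widely than those of the set, with SDs of 0.63 in HeyC2 and 0.82 in SKOV3. These differences depend on the centring, since the median difference of the set was 0.51 as centred here and 0.15 on TPM. RPL3, RPL26, RPSA and RPL15 differed most the other way, by -0.43, -0.40, -0.22 and -0.22.

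**Figure D3:**
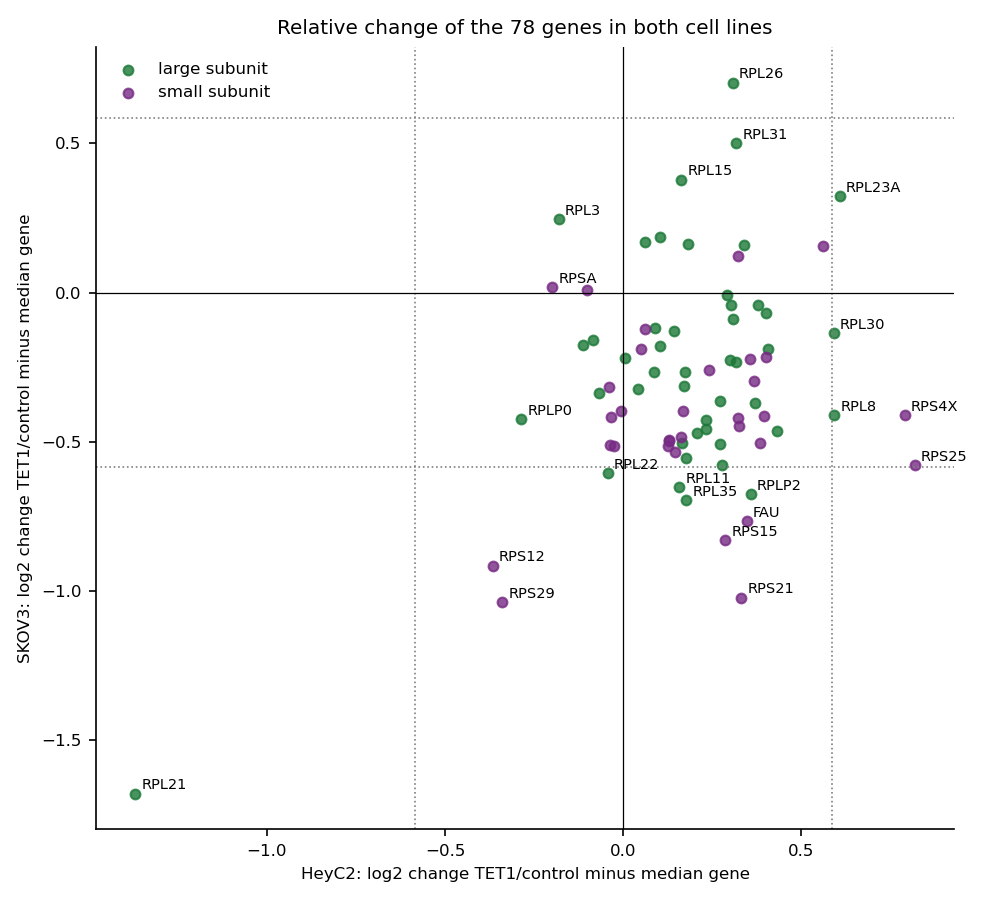
Relative change of each gene in HeyC2 (x axis) and SKOV3 (y axis), log2 scale, 1 point per gene; the dotted lines mark the 1.5-fold threshold. The lower right region holds 52 of the 78 genes, and RPL21 lies apart at -1.37 and -1.68.

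RPL21 was the only gene called lower in both lines. It was at 608 TPM in HeyC2 control and 212 TPM in TET1, and at 302 TPM in SKOV3 control and 109 TPM in TET1. RPL21 lies on chromosome 13, 27825499 to 27830828 (GRCh37). A near-identical copy elsewhere can share its reads: 480 of the 483 bases of the processed pseudogene RPL21P28, on chromosome 1 from 212224866 to 212225348, were the same as in the RPL21 transcript (99.4%). RPL21P28 was listed at 720 and 1182 TPM in HeyC2 and at 403 and 317 TPM in SKOV3. The pseudogenes of RPL21 thus took 54.2% and 84.8% of the summed FPKM in HeyC2, and 57.2% and 74.5% in SKOV3. Summed over the gene and its listed pseudogenes, the relative change was 0.22 in HeyC2, against -1.37 for RPL21 alone, and -0.94 in SKOV3, against -1.68. The value of RPL21 alone is therefore uncertain, and in HeyC2 its direction turned with the sum.

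RPL13A has such a copy too, listed at a higher level. It was at 1879, 1597, 634 and 659 TPM in HeyC2 control, HeyC2 TET1, SKOV3 control and SKOV3 TET1, and RPL13AP5 at 7659, 7438, 4800.0 and 5727 TPM. RPL13AP5, on chromosome 10 from 98510045 to 98510656, was the same as the RPL13A transcript in 609 of 612 bases (99.5%). The pseudogenes of RPL13A held between 80.4% and 89.7% of the sum, in every library alike, and the summed relative change was 0.08 in HeyC2 and 0.02 in SKOV3. In all, 31 pseudogene symbols belonged to 19 of the genes, and only for RPL13A, RPL21 and RPL23A did they hold over 5% of the sum in any library. These pseudogenes were singled out after their values were seen.

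**Figure D4:**
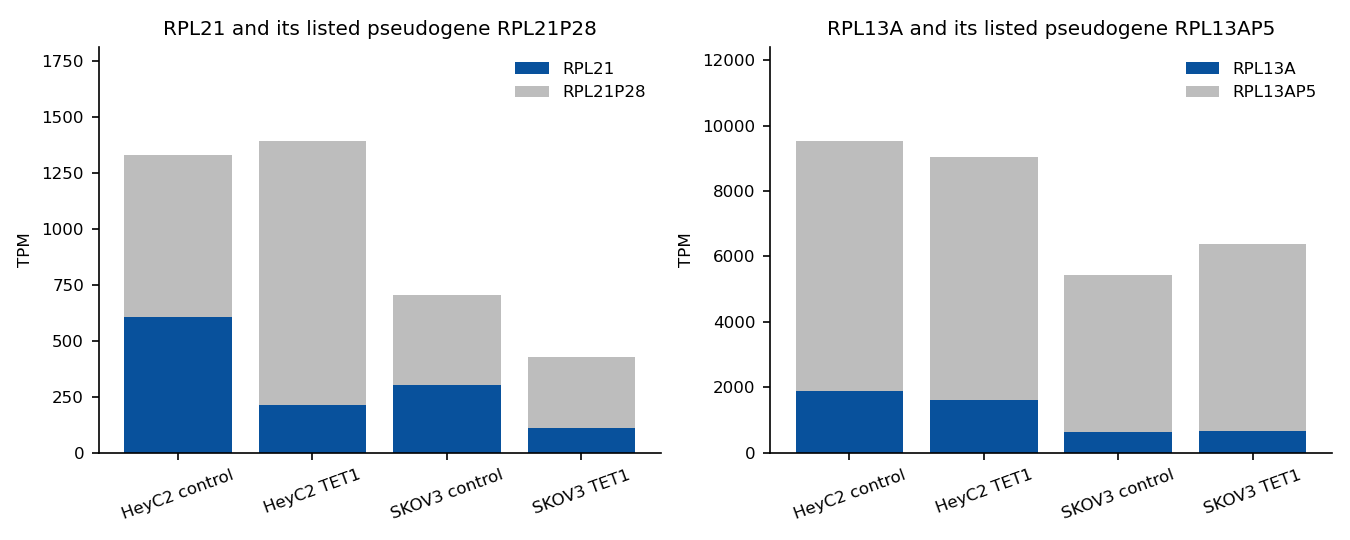
TPM (bar height, from 0) of RPL21 and RPL13A in the 4 libraries, with the listed level of a near-identical pseudogene stacked above each. RPL21 alone is lower in TET1 of both lines, from 608 to 212 TPM and from 302 to 109 TPM, while in HeyC2 the stacked bar is nearly level, at 1328 and 1394 TPM.

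The P stalk recruits the translation factors that hydrolyse GTP, and is made of RPLP0 with RPLP1 and RPLP2. RPLP0 was at 3778 and 2790 TPM in HeyC2 and at 2712 and 2347 TPM in SKOV3, with relative changes of -0.29 and -0.42. RPLP1 was at 4845 and 4031.5 TPM in HeyC2 and at 2851 and 2929 TPM in SKOV3 (-0.11 and -0.18). RPLP2 was at 1670 and 1927 TPM in HeyC2 and at 1712 and 1243 TPM in SKOV3 (0.36 and -0.68). RPLP0 and RPLP1 were thus below the median gene in both lines, and RPLP2 was on opposite sides. None of the 3 was called in HeyC2 and RPLP2 was called lower in SKOV3.

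RPL5 and RPL11, the partners of the 5S rRNA, were described for the controls above. RPL5 had relative changes of 0.00 in HeyC2 and -0.22 in SKOV3, and RPL11 of 0.16 and -0.65. Mutations in many ribosomal protein genes cause Diamond-Blackfan anemia. The 18 genes of that list had medians of 0.17 in HeyC2 and -0.22 in SKOV3, close to the whole set. In HeyC2 0 were called, where 13% of all genes were called higher and 12.9% lower. In SKOV3 1 was called higher (5.56%, against 20.6% of all genes) and 3 lower (16.7%, against 17.9%). The SKOV3 median of this list turned to 0.10 when centred on abundant genes.

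The 4 X-linked genes were RPS4X, RPL10, RPL36A and RPL39. All 4 lay above the median gene in HeyC2 (median 0.32) and below it in SKOV3 (median -0.48). Other X-linked genes had medians of -0.09 and -0.12 in the respective lines. RPL10, which helps shape the peptidyl transferase centre, was at 1364 and 1489 TPM in HeyC2 (0.28) and at 691 and 537 TPM in SKOV3. RPL39 was at 2540 and 2957 TPM in HeyC2 (0.37) and at 1223 and 1096 TPM in SKOV3 (-0.37). RPL36A lay at 0.18 and -0.55.

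Elsewhere on the genome, the 12 genes of chromosome 19 had a median of 0.29 in HeyC2, where the other genes of that chromosome had -0.03. In SKOV3 they were at -0.37 and the other genes at 0.05. The 6 genes of chromosome 11 lay at 0.35 in HeyC2, where their neighbours on the chromosome also lay high, at 0.22. The 6 genes of chromosome 17, RPL26 and RPL23A among them, had a median above the median gene in SKOV3, at 0.17, unlike those of the other chromosomes with at least 4 of the genes, where the other genes of chromosome 17 were at 0.36.

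Many introns of these genes hold snoRNAs, small RNAs that guide chemical changes of rRNA. A snoRNA gene lay inside 29 of the 78 genes. These host genes had a median of 0.27 in HeyC2 and one of -0.32 in SKOV3, against 0.18 and -0.34 for the other 49. Genes with a TOP tract had medians of 0.17 in HeyC2 and -0.34 in SKOV3, and the 16 without a tract at the annotated start had 0.13 and -0.20.

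Some ribosomal proteins have paralogs encoded by a separate gene, which were not part of the set. RPL22L1, the paralog of RPL22, was at 33.9 and 225 FPKM in HeyC2 control and TET1 and at 6.21 and 18.1 FPKM in SKOV3. Its relative change was 1.09 in HeyC2 and 0.81 in SKOV3, higher in both lines, where RPL22 itself lay at -0.04 and -0.61. RPL26L1 lay the other way, at -0.31 and -1.18, where RPL26 was at 0.31 and 0.70. RPL36AL lay at -0.04 and -0.64, RPL7L1 at 0.19 and -0.70, RPL39L at 0.19 and 0.06, and RPS27L at 0.07 and 0.27. RPL10L was listed at 0 in all libraries and RPL3L, a muscle form, was at 0.10 FPKM or below. Of the 6 paralogs that passed the filter, 1 was called higher in each line and 3 were called lower in SKOV3 (RPL26L1, RPL7L1 and RPL36AL). Of all genes, 13% were called higher in HeyC2, and 20.6% were called higher and 17.9% lower in SKOV3.

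GNB2L1, the older symbol of RACK1, encodes a small subunit protein whose name does not follow the rule. It lay at 0.21 and -0.45, from 1547 and 5472 FPKM in HeyC2 and 738 and 811 FPKM in SKOV3.

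The counts of the lists that follow can be set beside all genes, of which 13% were called higher and 12.9% lower in HeyC2, and 20.6% and 17.9% in SKOV3. A list of translation factors and other genes taken to have a TOP tract, HNRNPA1, NPM1 and NAP1L1 among the others, had medians of 0.05 in HeyC2 and -0.17 in SKOV3. The start sites of these genes are not shown here. Of 18 genes, 1 was called higher and 2 lower in HeyC2, and 0 higher and 4 lower in SKOV3. HNRNPA1, an RNA-binding protein, and EEF1B2, an exchange factor of elongation, were low in both lines, at -0.85 and -0.96 for HNRNPA1 and at -0.82 and -0.72 for EEF1B2. EIF4A2, an RNA helicase of initiation, was the gene called higher in HeyC2 (0.62), and lay at -0.32 in SKOV3. EEF1D lay at 0.56 and -0.75, while EIF4B and EIF3L were the highest in SKOV3, at 0.50 and 0.48. The HeyC2 median of this list turned to -0.10 on TPM, and the SKOV3 median turned to 0.04.

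The other initiation and elongation factors had medians of -0.08 in HeyC2, with 0 of 26 called, and -0.56 in SKOV3, with 1 of 27 called higher and 12 (44.4%) lower, where 17.9% of all genes were. The lowest in SKOV3 were EIF3C, at 11.5 and 4.62 FPKM (-1.74), and EIF1AX, at 50.7 and 34.9 FPKM (-1.11). EEF1A2, an elongation factor of nerve and muscle, was at 24.8 and 198 FPKM in SKOV3 (2.36) and listed at 0 in both HeyC2 libraries. EIF1, which guards start codon choice, lay at -0.41 in HeyC2 and 0.48 in SKOV3. The ends of the list in HeyC2 were EEF1E1 and GSPT1 (0.54 and 0.31) and EIF3K and EIF4A1 (-0.57 and -0.51).

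RNA polymerase I makes the large rRNA precursor. Its 15 genes had medians of -0.03 in HeyC2, with 3 called higher (20%, against 13% of all genes), and -0.48 in SKOV3, with 4 called lower (26.7%, against 17.9% of all genes). TAF1C and TAF1B, of its promoter factor, were the highest in HeyC2, at 1.22 and 0.91, and TTF1, a terminator, and POLR1A, the largest subunit, the lowest, at -0.47 and -0.33. POLR1E and RRN3 were the lowest in SKOV3, at -0.67 and -0.66, and TAF1C and POLR1B the highest, at 0.54 and 0.27.

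The 73 ribosome assembly genes had medians of -0.01 in HeyC2 and -0.54 in SKOV3, against 0.18 and -0.33 for the ribosomal proteins. On TPM the medians in HeyC2 were -0.03 and 0.03. Of the assembly genes, 4 were called higher and 2 lower in HeyC2, and 0 higher and 34 lower (46.6%) in SKOV3. MRTO4 and PPAN, both of large subunit assembly, were the lowest in SKOV3, at 45.6 and 22.6 FPKM (-1.57) and at 40.5 and 20.3 FPKM (-1.55). RIOK2 and UTP6 were the highest there, at 0.23 and 0.19. In HeyC2, DKC1, the pseudouridine synthase of rRNA, and GNL3 were the highest at 0.71 and 0.64, and RRP15 and GAR1 the lowest at -1.24 and -0.61. RRP15 was at 2.49 FPKM or below in HeyC2, where the pseudocount weighs most.

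The 15 snoRNA host genes, many of which also carry a TOP tract, had the widest gap between the lines of the lists described. Their medians were 0.45 in HeyC2, with 5 called higher and 0 lower, and -0.50 in SKOV3, with 0 higher and 7 lower. SNHG1 lay at 0.45 in HeyC2 and was at 135 and 77.2 FPKM in SKOV3 (-1.38), the lowest there, followed by SNHG6 at -1.18. SNHG9 and EPB41L4A-AS1 were the highest in HeyC2, at 1.67 and 0.87. SNHG9 was at only 1.46 FPKM in HeyC2 control, where the pseudocount weighs most, and at 22.9 FPKM in HeyC2 TET1. SNHG8 and SNHG16 were the lowest in HeyC2, at -0.27 and -0.02. SNHG15 and SNHG11 lay high in SKOV3, at 0.43 and 0.32. The medians of these host genes kept their direction on TPM, at 0.33 and -0.27.

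The 14 measured genes that control ribosomal protein synthesis had medians of -0.06 in HeyC2, with 1 called in each direction, and -0.39 in SKOV3, with 1 called higher and 3 lower. MYC, which drives transcription of ribosome genes, was at 27.4 and 108 FPKM in HeyC2 (0.33) and at 69.4 and 59.0 FPKM in SKOV3 (-0.82). MTOR lay at -0.85 and -0.37. EIF4EBP1, the translation repressor that mTOR inactivates, was at 84.3 and 420.5 FPKM in HeyC2 (0.70) and lay at 0.30 in SKOV3. LARP4 was the next lowest in HeyC2, at -0.44. RPS6KB2, an S6 kinase, was the lowest in SKOV3 (-1.28), and TSC1, a brake on mTOR, and MDM2 were the highest there, at 0.61 and 0.42.

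**Figure D5:**
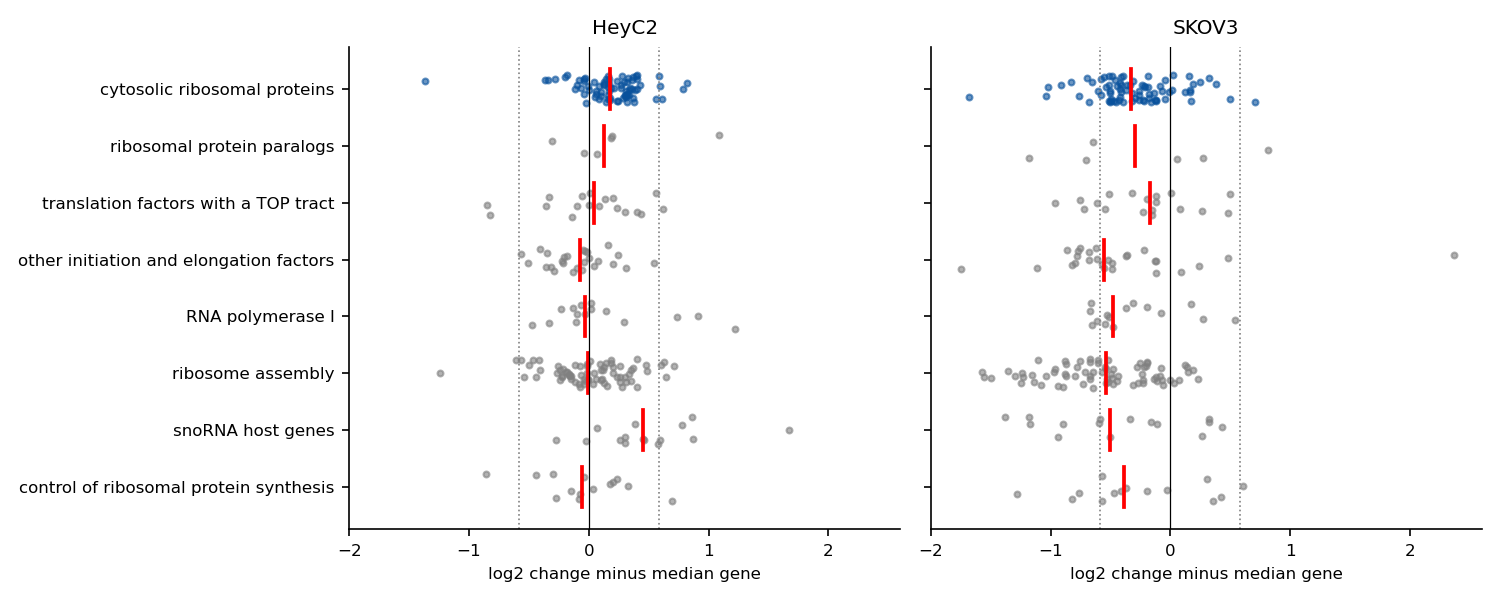
Relative change (x axis, log2 scale) of every measured gene in 8 groups, 1 point per gene, with the red bar at the median and dotted lines at 1.5-fold. The ribosomal proteins have their median at 0.18 in HeyC2 and -0.33 in SKOV3, and the snoRNA host genes at 0.45 and -0.50.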

How the data were processed

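FPKM were deposited for 26506 symbols, in a separate table for each line. The authors made them from TruSeq libraries with Bowtie2 2.2.6 and RSEM 1.2.17 on hg19, per the submitters' processing notes. The annotation is not given in the sources used here. Each TET1 library also appears to have been multiplied by a constant that set GAPDH to its control value. Neither the paper nor the labels name this step, which is inferred from the values. The constant was recovered from the steps of the values, and 99.9% (HeyC2) and 99.8% (SKOV3) of distinct values under 40 FPKM matched it.

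The ribosomal protein genes and the gene lists were chosen with earlier results of these data known. Relative changes were computed from the deposited FPKM with a pseudocount of 1, minus the median of genes with a mean of at least 1 FPKM. With 1 library per condition no test was run and no p-value is given. Genes were named by rule: the 6 highest and 6 lowest relative changes per line, every called gene, the 4 largest differences between lines each way, the 6 highest and 6 lowest levels, all genes of the short lists (P stalk, partners of the 5S rRNA, X-linked genes, paralogs, other subunit genes) and the 2 highest and 2 lowest of each longer list per line. A few genes that the rule names are not reported here by name; they are included in the counts and medians.

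Depth was estimated from the spacing of low FPKM values and is rough; counting errors used the length of the GENCODE canonical transcript, cover counting error only, and are understated where that transcript is longer than the main mRNA. Positions came from GENCODE v44 on GRCh37, the build of hg19, where all 78 symbols matched, and start site sequences from RefSeq on GRCh38.p14. Calculations used Python 3.11.15, numpy 2.4.6, pandas 2.3.3, Biopython 1.88 and matplotlib 3.10.9, and were tested on simulated data. The alternatives were pseudocounts of 0.1 and 0.01, no filter, a mean of at least 5 FPKM, values before the scaling, TPM, other centrings, long transcripts only, correction for GC content and length in 20 bins each, and thresholds of 1.2-fold and 2-fold. Sums with pseudogenes, leaving out RPL21, and all alternatives for the controls and for the difference between the lines were added after seeing the data.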

Additional observations from a re-analysis of the deposited data

Results flagged for a closer look

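A closer look is warranted by the opposite sides of the median gene on which the set, itself chosen by symbol, lay in the 2 cell lines, with a median difference of 0.51 on the log2 scale (HeyC2 minus SKOV3). The HeyC2 side depended on the scale. There the median of the set was 0.02 before the scaling to GAPDH and 0.03 on TPM, without centring. In SKOV3 these medians were -0.37 and -0.11. On the deposited scale, other genes of at least 100 FPKM lay on the same sides, with medians of 0.12 in HeyC2 and -0.32 in SKOV3. Centred on genes of at least 100 FPKM, the median difference of the set was 0.07. The difference was not tested, since each condition has 1 library. Single genes that lay above the median gene in HeyC2 and below it in SKOV3 by at least 1 on the log2 scale in total were RPS25 (1.39), RPS21 (1.353), RPS4X (1.199), RPS15 (1.11), FAU (1.11), RPLP2 (1.03) and RPL8 (1.002). The largest counting error among these genes was 0.06 in HeyC2 and 0.08 in SKOV3, both for RPS21. It does not include the spread between cultures. The share of all genes that differed this far was not counted, so no excess in the set is shown. The differences of these single genes depend on the centring. Among them only RPS4X and RPL8 have a transcript of at least 600 bases, and the part of transcript length was not tested.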

How the results depend on the processing

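The median relative change in HeyC2 (0.18) depended on the scale: it was 0.0278 with a pseudocount of 0.1, 0.00905 with 0.01, 0.0227 before the scaling to GAPDH, 0.0553 centred on genes of at least 100 FPKM, 0.0299 on TPM, 0.0579 on the upper quartile and 1.17 with no filter. The genes called higher in HeyC2 (5) numbered 2 under each of these settings other than no filter (77), 2 with a mean of at least 5 FPKM, 3 among transcripts of at least 600 bases, 34 at 1.2-fold and 0 at 2-fold. The gene called lower, RPL21, was not called with no filter or when summed with its pseudogenes (0 called, its change turning to 0.22), is not among transcripts of at least 600 bases (0), and 4 were called at 1.2-fold. In SKOV3 the median (-0.33) turned to 0.18 with no filter, and was -0.00825 centred on genes of at least 100 FPKM, -0.11 on TPM, -0.18 on the upper quartile and -0.22 when corrected for GC content and length. Genes called higher in SKOV3 (1) numbered 11, 4, 3, 2 and 2 under these settings in the same order, 0 among long transcripts, 4 at 1.2-fold and 0 at 2-fold. Genes called lower (10) numbered 1, 4, 5, 6 and 6, 2 among long transcripts, 45 at 1.2-fold and 3 at 2-fold. Between the controls the median (0.93) was 0.66 with no filter, 0.74 centred on genes of at least 100 FPKM, 0.64 on TPM and 0.79 on the upper quartile, and 37 genes were called higher at 2-fold. The median difference between the lines (0.51) was 0.41 with a pseudocount of 0.01, 0.99 with no filter, 0.39 with a mean of at least 5 FPKM, 0.40 before the scaling, 0.0685 centred on genes of at least 100 FPKM, 0.15 on TPM and 0.25 on the upper quartile. The genes above in HeyC2 and below in SKOV3 (52) numbered 16 with no filter, 29 centred on genes of at least 100 FPKM and 33 on TPM, and the genes with the higher change in HeyC2 (70) numbered 44 centred on genes of at least 100 FPKM. With no filter the 10172 (HeyC2) and 8833 (SKOV3) genes listed at 0 in both libraries enter the centre, which becomes 0.62 and 0.08. TPM values are not centred on the median gene. The difference between subunits in each comparison kept its direction under every alternative run.

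With 1 library per condition nothing here separates an effect of TET1 from the spread between cultures, and the plasmid and the culture it was selected in cannot be told apart. The GAPDH constant was inferred from the values. Counting error is small for these abundant mRNAs, up to 0.15 in HeyC2 and 0.23 in SKOV3 for RPS29, so depth limits few of the values. A fit over both lines, with the line as a block, was not run.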
